A study of Mus musculus with 17 samples.

Results

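The genes described here are 10 of the 35896 gene IDs counted in mouse pancreatic stellate cells. They were chosen by name, with their Ensembl IDs mapped to mouse symbols, as genes of NF-kB subunits and of the feedback around them: Nfkb1, Nfkb2, Rela, Relb, Nfkbia, Nfkbiz, Bcl3, Tnfaip3, Birc3 and Tnfaip2. All 10 were among the 13923 genes that passed the filter on low counts. RNA was sequenced from 17 libraries of stellate cells, the pancreatic cells that store fat droplets at rest and give rise to fibroblasts in tumours. Every library came from wild-type C57BL/6J cells of the line PSC4 or PSC5, grown for 4 days with the treatment in Matrigel, which is gelled basement membrane matrix.

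The control group had 5 libraries in control medium (PSC4 replicates 1, 2 and 3, and PSC5 replicates 1 and 2). The TGF-beta group had 4 libraries with TGF-beta at 20 ng/mL (PSC4 replicates 2 and 3, and PSC5 replicates 1 and 2). TGF-beta is a cytokine that turns stellate cells into contractile, matrix-making cells. The conditioned medium group had 4 libraries in medium from pancreatic tumour organoids (replicates 1 and 2 of each line), and another 4 libraries had such medium plus the ERBB kinase inhibitor neratinib at 300 nM. Libraries of a line with the same number shared a passage, 23 to 25 in PSC4 and 27 or 28 in PSC5, and nothing in the labels ties replicates to separate animals, so p-values measure the spread between these cultures of 2 lines. In conditioned media, replicate 1 carried the medium code T8 and replicate 2 the code T6, so the code and the number go together there.

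NF-kB is a family of transcription factors that act as dimers. At rest, inhibitory IkB proteins hold the dimers in the cytoplasm. Receptors for TNF, for IL-1 and for microbial products activate kinases that have the IkB protein destroyed, and the freed dimers then switch on inflammatory genes together with their own brakes, so that IkB-alpha and other inhibitors are made again. In a second branch of the pathway, a stabilised kinase leads to processing of the Nfkb2 product, which acts with RelB. In stellate cells and other fibroblasts the pathway is known for driving cytokine and chemokine production.

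In GRCm38 coordinates of the GENCODE annotation, the subunit genes are Nfkb1 (chr3:135584655-135691547), Nfkb2 (chr19:46304320-46312385), Rela (chr19:5637483-5648130) and Relb (chr7:19606217-19629438). The IkB family genes are Nfkbia (chr12:55489410-55492647), Nfkbiz (chr16:55811375-55838899) and Bcl3 (chr7:19808462-19822770), and the others are Tnfaip3 (chr10:19000910-19015657), Birc3 (chr9:7848699-7873186) and Tnfaip2 (chr12:111442469-111455018). Relb and Bcl3 thus lie on the same chromosome, as do Nfkb2 and Rela, and Nfkbia and Tnfaip2.

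The start regions of these genes are shown because NF-kB is known to bind near several of them. RefSeq promoter sequences on GRCm38.p6 (250 bases before to 50 after a start) were matched for 7 of the 10 genes, with 10 promoters in all; Nfkb1, Relb and Nfkbiz had no entry. Both strands were searched for the 10-letter NF-kB consensus, and matches are in capitals, read from the gene's strand. Of 32851 promoters of the same length, 8.46% held a match (9.55% of 27025 genes). Among the 7 genes, 5 had a match: Nfkb2, Nfkbia, Bcl3, Tnfaip3 and Tnfaip2. Those of Nfkb2 (chr19:46304487-46304786, + strand, the first of 3 starts), Nfkbia (chr12:55492598-55492897, - strand), Bcl3 (chr7:19822706-19823005, - strand) and Tnfaip3 (chr10:19015361-19015660, - strand, the first of 2 starts) read:
Nfkb2: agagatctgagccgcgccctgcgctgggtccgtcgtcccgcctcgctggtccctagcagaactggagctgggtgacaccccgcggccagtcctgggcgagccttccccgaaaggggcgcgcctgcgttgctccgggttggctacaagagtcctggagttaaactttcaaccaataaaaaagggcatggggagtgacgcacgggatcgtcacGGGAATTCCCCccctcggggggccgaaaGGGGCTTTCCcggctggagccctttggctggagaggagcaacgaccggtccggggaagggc
Nfkbia: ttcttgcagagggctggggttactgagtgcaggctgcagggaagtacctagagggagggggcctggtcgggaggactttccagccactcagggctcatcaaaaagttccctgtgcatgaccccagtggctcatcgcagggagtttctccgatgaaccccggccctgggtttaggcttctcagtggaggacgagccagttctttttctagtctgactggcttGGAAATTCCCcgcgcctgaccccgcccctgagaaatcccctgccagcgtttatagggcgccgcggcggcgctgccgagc
Bcl3: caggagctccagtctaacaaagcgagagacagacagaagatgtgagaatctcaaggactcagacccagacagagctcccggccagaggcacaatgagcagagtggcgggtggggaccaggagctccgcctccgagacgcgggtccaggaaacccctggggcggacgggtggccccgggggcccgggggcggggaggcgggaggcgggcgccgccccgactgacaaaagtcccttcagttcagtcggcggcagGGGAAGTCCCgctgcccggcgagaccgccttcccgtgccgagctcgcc
Tnfaip3: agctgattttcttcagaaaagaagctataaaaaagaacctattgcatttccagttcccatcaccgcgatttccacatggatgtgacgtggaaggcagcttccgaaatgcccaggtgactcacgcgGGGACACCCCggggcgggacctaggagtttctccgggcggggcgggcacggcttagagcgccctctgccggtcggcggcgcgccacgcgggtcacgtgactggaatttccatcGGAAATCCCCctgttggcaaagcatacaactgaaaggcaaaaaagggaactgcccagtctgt

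The Nfkb2 promoter held 3 matches, of which 2 overlap in the longer run of capitals. Nfkbia had 1 match, Bcl3 had 1 match just after the start, and Tnfaip3 had 2. Rela, Birc3 and the other Tnfaip3 start held none in this window. A 9-letter core, GGGNNTTTC, some of whose matches lie within a consensus match, as in the Tnfaip3 promoter next to the start, was found in 4 of the 7 genes (Nfkb2, Rela, Nfkbia and Tnfaip3) and in 5.06% of all genes with a promoter. The AP-1 motif TGANTCA, searched in the same way, matched in 2 genes, Nfkb2 and Tnfaip3, and in 8.97% of all genes with a promoter. A match is a run of letters and no record of binding.

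The library totals ranged from 22168953 to 29421447 counts (1.33-fold), and no 2 libraries were identical. All 10 stellate and fibroblast markers were counted in every library, among them collagen and PDGF receptor genes; Des, a classical stellate marker, lay between 0.584 and 3.71 CPM (TMM-scaled counts relative to library size). The 3 libraries labelled PSC4 replicate 1 (control, conditioned medium and neratinib) stood apart from their line: across genes, their deviations from the group mean had a mean correlation of -0.443 to -0.25 with the other PSC4 libraries and of 0.141 to 0.221 with PSC5 libraries. The other 14 of 14 libraries were closer to their own line. Counts of genes called are therefore also given without these 3 libraries.

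Summed levels of 9 epithelial markers moved with the conditioned media. The sum was 4.86 to 8.43 CPM in control, 5.45 to 15.1 in TGF-beta, 8.32 to 154 in conditioned medium and 3.49 to 305 with neratinib, and it was high in the T6 libraries, at 154 and 135 CPM in conditioned medium and 125 and 305 with neratinib. In T8 libraries it was 8.32 and 26.96 CPM in conditioned medium and 3.49 and 41.1 with neratinib. The 8 leukocyte markers summed to 2.12 to 13.5 CPM, with Adgre1 and Cd3e at 0 everywhere and Ptprc at 1 count or fewer; the highest sum, in neratinib PSC4 replicate 1, came from Cd68 at 12.3 CPM. The 4 endothelial markers summed to 1.38 to 4.68 CPM.

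In control medium the levels were ordered per kilobase of exon, so that genes can be set side by side. Rela had the highest mean, at 54.9 ± 4.45 CPM per kb (SD, n = 5). It was followed by Nfkb2 at 47.7 ± 4.91, Tnfaip2 at 43.5 ± 6.38, Nfkbia at 41.9 ± 3.27 and Nfkb1 at 36.6 ± 2.16. Relb lay at 21.9 ± 1.79 CPM per kb, Bcl3 at 13.7 ± 1.98 and Nfkbiz at 13.4 ± 3.23. The lowest were Birc3 at 6.38 ± 0.347 and Tnfaip3 at 5.03 ± 1.03 CPM per kb. From Rela down to Nfkb1, neighbours in this order were not separated beyond their SDs, nor were Bcl3 and Nfkbiz, or Birc3 and Tnfaip3. In control PSC5 replicate 2, Nfkb2 was above Rela, at 53.4 against 51.0 CPM per kb. Each of the 10 genes was counted at 17.3 CPM or more in each control library.

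**Figure D1:**
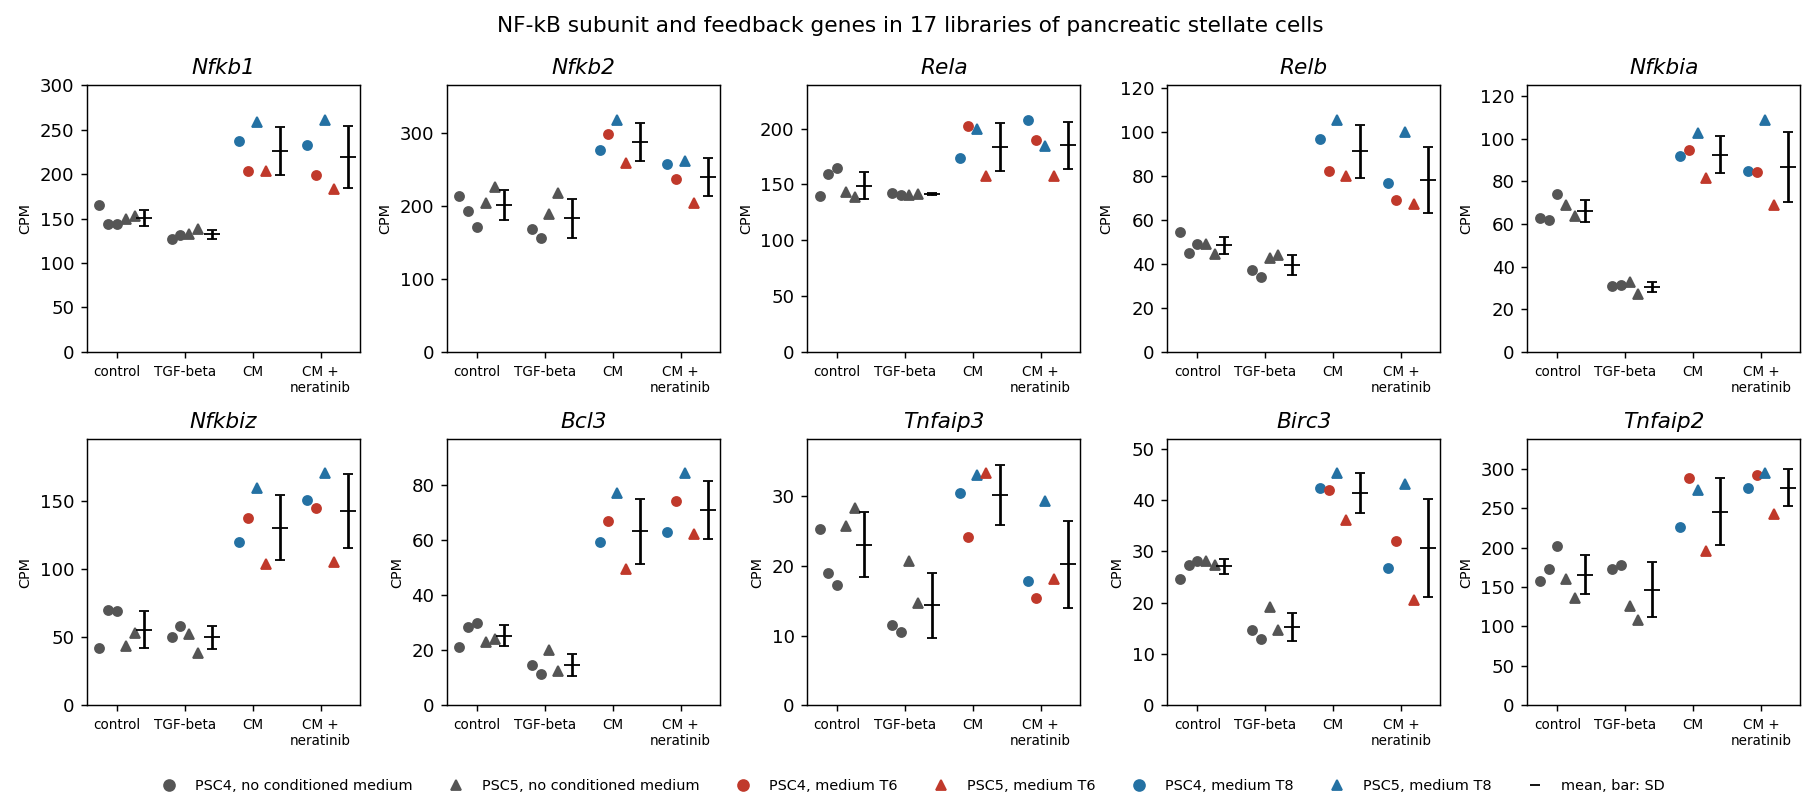
CPM (TMM-scaled, axis from 0) of the 10 genes in each library, by group; circles are PSC4, triangles PSC5, red and blue the medium codes T6 and T8, and the bar gives the mean and SD of the group. In conditioned medium all 4 Nfkbia libraries lay above 81 CPM, control libraries between 61.6 and 73.9 and TGF-beta libraries between 27.1 and 32.8.

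In conditioned medium 9 of the 10 genes were higher than in control medium and none was lower, by edgeR's quasi-likelihood test with Benjamini-Hochberg adjusted p under 0.05 over all genes tested. The same rule called 7.05% of all genes higher and 7.14% lower. The median log2 fold change of the 10 genes was 0.587, against 0 over all genes. The largest differences were in the nuclear IkB proteins Bcl3 and Nfkbiz, and the smallest called one was in Rela. In bulk RNA, a change in the number of cells of a type and a change in RNA per cell cannot be told apart.

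Among the subunits, Relb had the largest difference. Relb, the subunit of the second branch, was at 54.3, 45.1 and 49.2 CPM in the PSC4 control libraries and at 49.0 and 44.4 in those of PSC5. In conditioned medium it was at 96.8 and 82.2 CPM in PSC4 replicates 1 and 2 and at 105 and 79.8 in PSC5. All conditioned medium libraries lay above all control libraries. The log2 fold change was 0.90 ± 0.12 (SE; edgeR adjusted p = 0.000356).

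Nfkb1 encodes the precursor of a DNA-binding subunit without a transactivation domain of its own. It was at 165, 144, 143, 150 and 153 CPM in the control libraries (PSC4 replicates 1 to 3, then PSC5 replicates 1 and 2), and at 237, 204, 259 and 203 in conditioned medium (PSC4 replicates 1 and 2, then PSC5). The groups did not overlap, and the log2 fold change was 0.57 ± 0.10 (SE; edgeR adjusted p = 0.00183). Nfkb2, whose product is processed into RelB's partner, was at 213, 193, 171, 204 and 225 CPM in control and at 276, 298, 318 and 259 in conditioned medium. Its groups did not overlap either, and it rose by 0.51 ± 0.10 on the log2 scale (SE; edgeR adjusted p = 0.00538). Exons of Nfkb2 share 531 bases with the noncoding gene AC114539.1 on the other strand, which was not among the gene IDs counted. They share 299 bases with Psd, also on the other strand, which had a mean of 83.4 counts. Bcl3 and Tnfaip2 share 55 and 150 exon bases with antisense genes. The use of strand in counting is not given in the sources used here.

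Rela, the main transactivating subunit, changed least. It was at 139, 159, 165, 143 and 139 CPM in control and at 173, 202, 200 and 158 in conditioned medium, so that the lowest conditioned medium library, PSC5 replicate 2, lay inside the control range. It rose by 0.31 ± 0.08 on the log2 scale (SE; edgeR adjusted p = 0.0195). This call was lost on leaving out control PSC5 replicate 2 (adjusted p = 0.0505), conditioned medium PSC4 replicate 2 (0.0651) or PSC5 replicate 1 (0.0802), and in T6 media alone (0.0678).

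Bcl3 encodes a nuclear member of the IkB family that binds dimers on DNA. It was at 21.4, 28.5, 29.9, 22.9 and 24.3 CPM in control and at 59.4, 67.1, 77.1 and 49.4 in conditioned medium, with no overlap. The rise was 1.31 ± 0.17 on the log2 scale, or 2.48-fold (SE; edgeR adjusted p = 0.000318). Nfkbiz encodes IkB-zeta, a nuclear cofactor needed for a set of secondary inflammatory genes such as Lcn2. It was at 41.7, 69.7, 69.0, 43.9 and 53.3 CPM in control and at 120, 138, 159 and 104 in conditioned medium. Every conditioned medium library was above every control library, and the log2 fold change was 1.25 ± 0.18 (SE; edgeR adjusted p = 0.00063).

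Nfkbia encodes IkB-alpha, the inhibitor whose resynthesis ends a pulse of NF-kB. It was at 62.7, 61.6, 73.9, 68.8 and 63.7 CPM in control and at 91.6, 94.4, 103 and 81.5 in conditioned medium. The groups did not overlap, and the log2 fold change was 0.48 ± 0.11 (SE; edgeR adjusted p = 0.0112). The rise was thus smaller than in Bcl3 or Nfkbiz on the log2 scale, a difference between genes that was not tested.

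Of the feedback enzymes and targets, Birc3, a ubiquitin ligase at TNF receptor complexes, was at 24.5, 27.3, 28.1, 28.1 and 27.3 CPM in control and at 42.4, 41.8, 45.2 and 36.0 in conditioned medium. It rose by 0.60 ± 0.16 on the log2 scale (SE; edgeR adjusted p = 0.0231) with no overlap of the groups. The Birc3 call was lost without the 3 PSC4 replicate 1 libraries (log2 fold change 0.55, adjusted p = 0.0648), in T6 media alone (0.53, adjusted p = 0.0823), and on leaving out conditioned medium PSC4 replicate 1 (0.0607), PSC4 replicate 2 (0.0614) or PSC5 replicate 1 (0.0738), or control PSC5 replicate 1 (0.0534) or 2 (0.0558). Tnfaip2, a protein first found as induced by TNF, was at 158, 172, 202, 160 and 136 CPM in control and at 226, 287, 273 and 195 in conditioned medium. Its log2 fold change was 0.60 ± 0.13 (SE; edgeR adjusted p = 0.0073), with PSC5 replicate 2 in conditioned medium below the highest control library.

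Tnfaip3, which encodes a ubiquitin-editing enzyme that shuts off signalling upstream of the IkB kinases, was the gene that did not pass. It was at 25.3, 19.0, 17.3, 25.7 and 28.3 CPM in control and at 30.4, 24.1, 33.0 and 33.3 in conditioned medium, and the groups overlapped. The log2 fold change was 0.35 ± 0.15 (SE; edgeR adjusted p = 0.14). In libraries of the same line and number it was higher in conditioned medium in 4 of 4 pairs, by 0.233 to 0.356 on the log2(CPM + 0.5) scale.

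Epithelial transcripts were also higher in conditioned medium libraries, and their part in these results was not tested. With T8 media alone 9 of the 10 genes were called higher, and with T6 media alone 6, with Nfkb2 (adjusted p = 0.0537), Rela and Birc3 lost. Of all genes, 1079 were called higher or lower with T8 media alone and 1035 with T6 media alone, against 1976 in the main fit. Without the 3 PSC4 replicate 1 libraries 8 genes were called, where 9.22% of all genes were called higher and 8.88% lower. Between T6 and T8 media, with line and replicate number as a block, none of the 10 genes was called, and edgeR called 0% of all genes. The log2 estimates (T6 minus T8) ran from -0.55 in Nfkbiz to -0.02 in Tnfaip3, with a median of -0.184 against -0.004 over all genes. Few libraries per code limit what could be called here. At an unadjusted p under 0.05 there were 6.51% of all genes (906) and 2 of the 10, Nfkbiz (T6 minus T8 log2 fold change -0.55 ± 0.15, SE; adjusted p = 0.573) and Nfkb1 (-0.27 ± 0.09; adjusted p = 0.683). With line alone in place of the block, 1 gene was called, Nfkb1, lower in T6 by 0.32 (adjusted p = 0.0225, edgeR).

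**Figure D2:**
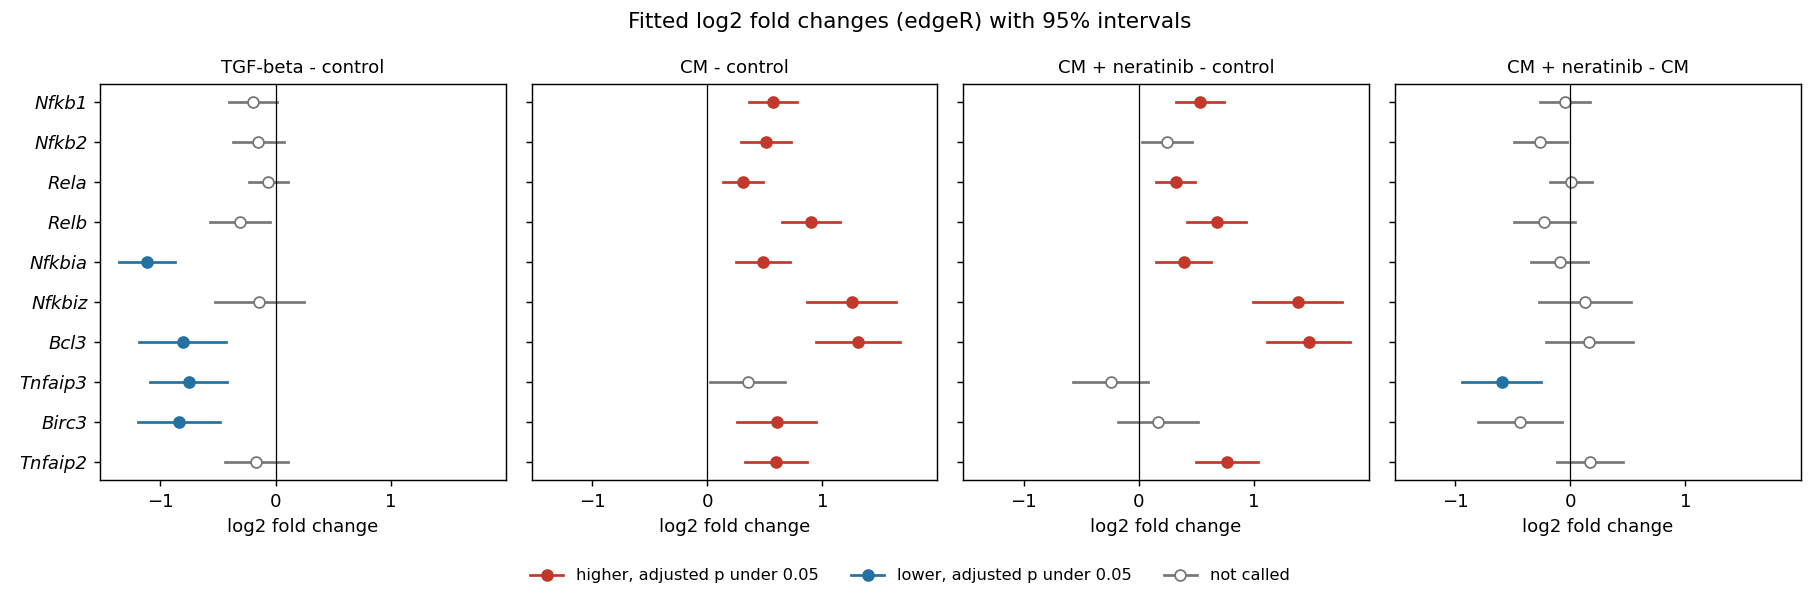
Fitted log2 fold changes of the 10 genes with 95% intervals in 4 comparisons, red for higher and blue for lower at an adjusted p under 0.05 and open for not called. Of the 10 genes, 9 were called higher in conditioned medium and 4 lower with TGF-beta, and Tnfaip3 was called lower with neratinib within conditioned medium.

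With TGF-beta 4 of the 10 genes were lower than in control medium and none was higher. The same rule called 20.5% of all genes lower and 19.7% higher. The 4 were Nfkbia, Birc3, Bcl3 and Tnfaip3, an inhibitor, a ligase, a nuclear cofactor and a deubiquitinating brake. None of the 4 subunits was called in this fit. The median log2 fold change of the 10 genes was -0.253, against -0.02 over all genes.

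Nfkbia was at 30.7 and 31.3 CPM in the PSC4 libraries with TGF-beta (replicates 2 and 3) and at 32.8 and 27.1 in PSC5, below the lowest control library at 61.6. It fell by 1.12 ± 0.12 on the log2 scale, to 0.461 of its control level (SE; edgeR adjusted p = 3.9e-06). Birc3 was at 14.7, 12.9, 19.2 and 14.6 CPM, again below every control library. It fell by 0.84 ± 0.17 (SE; edgeR adjusted p = 0.0011).

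Bcl3 was at 14.6, 11.3, 20.2 and 12.5 CPM with TGF-beta, all below the lowest control library, and fell by 0.81 ± 0.18 on the log2 scale (SE; edgeR adjusted p = 0.00216). Tnfaip3 was at 11.5, 10.5, 20.8 and 14.7 CPM. Its TGF-beta library PSC5 replicate 1 lay inside the control range, and the gene fell by 0.75 ± 0.16 (SE; edgeR adjusted p = 0.00146). In both lines each of these 4 genes was lower in every pair of libraries of the same line and number, 4 of 4.

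The 4 subunits had smaller differences. Relb was at 37.4, 34.0, 42.7 and 43.8 CPM with TGF-beta, below all control libraries, with a log2 fold change of -0.31 ± 0.12 (SE; edgeR adjusted p = 0.0535). Relb was called lower in 7 of 20 alternatives, among them upper-quartile factors (edgeR adjusted p = 0.0217), library totals alone (0.00565) and only these 9 libraries in the fit (0.0255). With line and replicate number as a block it was called as well (-0.27 ± 0.09, SE, edgeR adjusted p = 0.03). So was Tnfaip2 with the block (-0.22 ± 0.07, adjusted p = 0.0232), which without the block had -0.17 ± 0.13 (adjusted p = 0.327). Nfkb1 was at 127, 131, 133 and 138 CPM with TGF-beta, below every control library and lower in 4 of 4 pairs, with a log2 fold change of -0.20 (95% interval -0.41 to 0.01). It was called lower with upper-quartile factors (-0.245, edgeR adjusted p = 0.0386), with library totals alone (-0.33, adjusted p = 0.00686) and with only these 9 libraries in the fit (-0.19, adjusted p = 0.0276). Nfkb2 had a log2 fold change of -0.15 (-0.37 to 0.07) and Rela of -0.06 (-0.23 to 0.11), and falls of up to the lower bounds are within these intervals. Rela varied little with TGF-beta, at 143, 141, 141 and 142 CPM. Nfkbiz, at 50.4, 58.4, 52.2 and 38.2 CPM, lay inside its control range but for PSC5 replicate 2 (log2 fold change -0.14 ± 0.18, SE; adjusted p = 0.577, edgeR).

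Without the PSC4 replicate 1 libraries 4 genes were again called lower with TGF-beta, where 25.3% of all genes were called lower and 24.1% higher. Scaling by library totals alone, which moved the median of all genes to -0.153, called 7 of the 10. Of all genes called with that scaling, 28.7% were higher. Over the 20 alternatives, this scaling among them, 4750 to 7091 of all 13923 genes were called higher or lower, against 5598 in the main fit. The epithelial sum in TGF-beta libraries was 5.45 to 15.1 CPM, and the stellate marker sum, which holds 3 collagen genes, was 9985 to 20530 CPM against 5600 to 7097 in control; their part in these results was not tested.

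Conditioned medium and TGF-beta share the control libraries, so the direct comparison was made. All 10 genes were higher in conditioned medium than with TGF-beta, where 17.8% of all genes were called higher and 17.5% lower. The log2 fold change was largest in Bcl3 (2.12 ± 0.19, SE; adjusted p = 9.99e-07, edgeR), Nfkbia (1.60 ± 0.12; adjusted p = 2.14e-07) and Birc3 (1.44 ± 0.18; adjusted p = 1.89e-05), and smallest in Rela (0.37 ± 0.08; adjusted p = 0.0031). The median was 1.16, against 0.015 over all genes. Without the PSC4 replicate 1 libraries 10 genes were again called, where 21.1% of all genes were called higher and 20.4% lower.

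With neratinib in the conditioned medium 1 of the 10 genes, Tnfaip3, was lower than in conditioned medium alone, and none was higher. The same rule called 9.63% of all genes lower and 10.8% higher, so 1 of 10 is near the share of all genes. The median log2 fold change was -0.068, against 0.001 over all genes. The comparison gives the difference made by neratinib within tumour organoid medium. No library had neratinib in control medium, so an effect of the drug by itself and a changed response to the medium cannot be told apart.

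Tnfaip3 was at 17.9 CPM with neratinib against 30.4 without it in PSC4 replicate 1, at 15.5 against 24.1 in PSC4 replicate 2, at 29.4 against 33.0 in PSC5 replicate 1 and at 18.2 against 33.3 in PSC5 replicate 2. It was lower in 4 of 4 pairs of the same line and number, by 0.166 to 0.855 on the log2(CPM + 0.5) scale in size, and least so in PSC5 replicate 1. The fit gave a fall of 0.60 ± 0.16 on the log2 scale, to 0.662 of the level without neratinib (SE; edgeR adjusted p = 0.0189). The call was lost without conditioned medium PSC4 replicate 1 (-0.50, adjusted p = 0.0649), without neratinib PSC5 replicate 2 (-0.49, adjusted p = 0.0646), with T8 media alone (-0.47, adjusted p = 0.257), with only these 8 libraries in the fit (-0.60, adjusted p = 0.0729) and without the cell line term (-0.58, adjusted p = 0.0988). It held without the 3 PSC4 replicate 1 libraries (-0.53, adjusted p = 0.0406) and with the block (-0.60, adjusted p = 0.00288). Without those 3 libraries 1 gene was again called, where 6.73% of all genes were called lower and 7.42% higher.

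Birc3 was at 26.8 CPM with neratinib against 42.4 without it in PSC4 replicate 1, at 32.0 against 41.8 in PSC4 replicate 2, at 43.2 against 45.2 in PSC5 replicate 1 and at 20.6 against 36.0 in PSC5 replicate 2. It was lower in 4 of 4 pairs, with a log2 fold change of -0.43 ± 0.17 (SE; edgeR adjusted p = 0.0845). With line and replicate number as a block Birc3 was called as well (-0.46 ± 0.13, SE; adjusted p = 0.0189, edgeR), which made 2 genes lower, where 16% of all genes were called lower. Without neratinib PSC5 replicate 1, the library with the highest Birc3 level of its group, the Birc3 value was -0.64 (adjusted p = 0.00686) and 3 genes were called lower, with Relb at -0.35 (adjusted p = 0.0354). On leaving out a library, 1748 to 3685 of all 13923 genes were called higher or lower in this comparison. Without neratinib PSC5 replicate 2 the Birc3 value was -0.27 (adjusted p = 0.207).

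The other 8 genes were not called. Nfkb2, at 257, 237, 261 and 205 CPM with neratinib, was lower in 4 of 4 pairs (-0.26 ± 0.11, SE; adjusted p = 0.101, edgeR), and so was Relb, at 76.5, 68.8, 99.95 and 67.2 CPM (-0.22 ± 0.13; adjusted p = 0.221). Bcl3, at 63.0, 74.1, 84.3 and 62.4 CPM, had a log2 fold change of 0.17 (95% interval -0.21 to 0.54), and Nfkbiz, at 150, 145, 170 and 105 CPM, of 0.13 (-0.28 to 0.53). Both were higher with neratinib in 4 of 4 pairs, as was Tnfaip2 (0.17, interval -0.11 to 0.46). Nfkb1, Rela and Nfkbia lay within 0.10 of 0, with intervals of -0.26 to 0.18, -0.17 to 0.19 and -0.34 to 0.16, which bound any change more tightly than in Bcl3 or Nfkbiz.

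**Figure D3:**
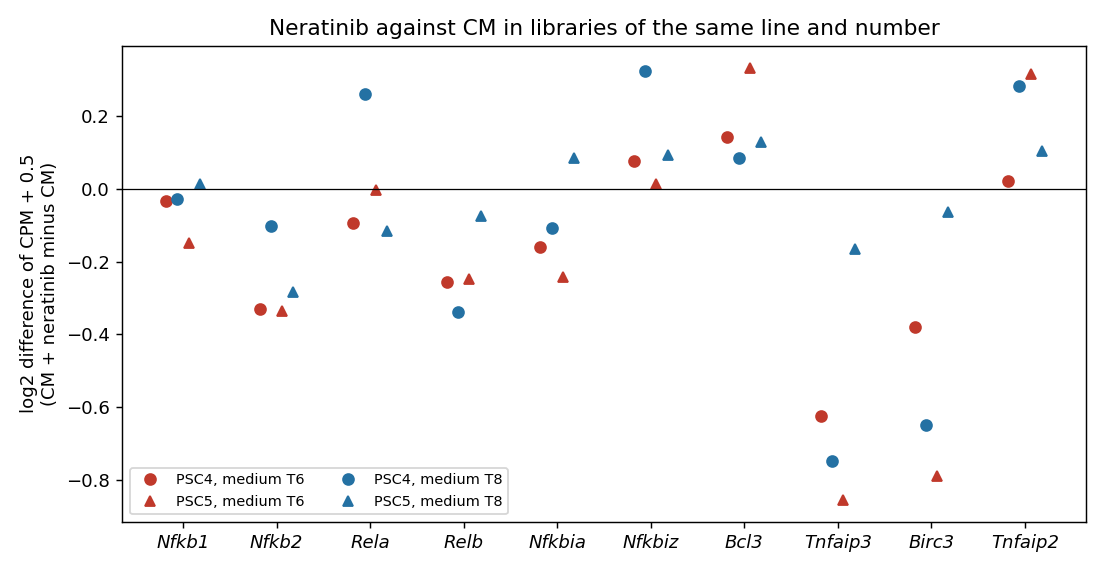
Difference of log2(CPM + 0.5) between conditioned medium with and without neratinib in the 4 pairs of libraries of the same line and number, for each gene; circles are PSC4, triangles PSC5, red T6 and blue T8. Tnfaip3 lies between -0.855 and -0.166 and Birc3 between -0.79 and -0.064, while Bcl3 lies between 0.084 and 0.333.

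The epithelial sum with and without neratinib was 3.49 and 8.32 CPM in PSC4 replicate 1, 125 and 154 in PSC4 replicate 2, 41.1 and 26.96 in PSC5 replicate 1, and 305 and 135 in PSC5 replicate 2. It was thus lower with neratinib in both PSC4 pairs and higher in both PSC5 pairs. Cd68 was at 12.3 CPM in neratinib PSC4 replicate 1. The part of these markers in the result was not tested.

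Set against control medium, conditioned medium with neratinib gave 7 of the 10 genes higher and none lower, with 22.2% of all genes called higher and 20.9% lower. The 7 were Bcl3 (log2 fold change 1.48), Nfkbiz (1.38), Tnfaip2 (0.77), Relb (0.68), Nfkb1 (0.53), Nfkbia (0.39) and Rela (0.32). Nfkb2 was at 0.25 ± 0.10 (SE; edgeR adjusted p = 0.0621), Birc3 at 0.17 ± 0.16 (adjusted p = 0.417) and Tnfaip3 at -0.24 ± 0.15 (adjusted p = 0.215). With the block Tnfaip3 was called lower than control, at -0.31 ± 0.11 (SE; edgeR adjusted p = 0.0382). Without the PSC4 replicate 1 libraries 7 genes were again called, where 20.6% of all genes were called higher and 19.7% lower. With T6 media alone 6 were called: Nfkbia (0.22, adjusted p = 0.104) and Rela (0.24, adjusted p = 0.0503) were lost, and Tnfaip3 was called lower (-0.49, adjusted p = 0.0468). With T8 media alone 8 were called, where 4463 of all genes were called higher or lower. Over the 22 alternatives that number was 4463 to 7300. Nfkb2 was called higher in 5 of them. These were T8 media alone (0.35, edgeR adjusted p = 0.0249), DESeq2 (0.255, adjusted p = 0.0497) and PSC4 replicate 1 libraries counted with PSC5 (0.24, edgeR adjusted p = 0.0469). The others left out neratinib PSC5 replicate 2 (0.34, adjusted p = 0.0148) or control PSC4 replicate 1 (0.28, adjusted p = 0.0494).

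Against TGF-beta all 10 genes were higher in conditioned medium with neratinib, where 23.1% of all genes were called higher and 20.9% lower. Bcl3 had the largest log2 fold change, 2.28 ± 0.19 (SE; edgeR adjusted p = 3.96e-07), and Rela the smallest, 0.38 ± 0.08 (adjusted p = 0.00208). Nfkb2 was at 0.40, with an overlap of the groups, and its call was lost with T6 media alone (0.28, adjusted p = 0.128). For Tnfaip3 the value was 0.51 ± 0.16 (adjusted p = 0.02), and the groups overlapped. The Tnfaip3 call was lost in 7 of 21 alternatives, among them T6 media alone (0.27, adjusted p = 0.251). Others left out neratinib PSC5 replicate 1 (0.0826) or TGF-beta PSC4 replicate 2 (0.0505), PSC4 replicate 3 (0.0644) or PSC5 replicate 2 (0.0567). Without the PSC4 replicate 1 libraries 10 genes were again called, where 24.3% of all genes were called higher and 22.9% lower.

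The lines PSC4 and PSC5 were compared within each effect by an interaction term. None of the 10 genes was called as different between lines in the effect of conditioned medium, of neratinib or of TGF-beta. In each, edgeR called 0% of all genes, with 43, 237 and 601 genes at an unadjusted p under 0.05 and none of the 10 among them. Each of these counts is below the 0.05 share that chance gives, so the absence of the 10 says little about them. The PSC4 replicate 1 libraries, which stood apart from their line, were counted as PSC4 here. Counting them with PSC5, or removing them, also called none of the 10. The widest estimates (PSC5 minus PSC4) were 0.34 ± 0.39 for Nfkbiz in the conditioned medium effect, 0.23 ± 0.34 for Tnfaip3 in the neratinib effect and 0.51 ± 0.36 for Bcl3 in the TGF-beta effect (SE, log2 scale). Errors of this size leave room for sizeable differences between lines.

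Across the 17 libraries the levels of the 10 genes were positively correlated in every pair. No background of pairs of other genes was computed, so whether this is particular to the set was not tested. Pearson's r of log2 CPM lay between 0.203 and 0.976 in the 45 pairs, with a median of 0.812, and the points share groups and libraries, so these values describe the set and carry no p-value. The closest pair was Nfkb1 and Relb (0.976) and the loosest Tnfaip3 and Tnfaip2 (0.203). After the mean of each group and line was taken out, r lay between -0.083 and 0.929, with a median of 0.578. Few libraries share a group and line, so what remains is largely the difference between replicate numbers. In conditioned media that is also the difference between the codes T6 and T8, whose part in these values was not tested. Tnfaip3 was set apart from Rela, Nfkbiz and Tnfaip2, with r of 0.27, 0.35 and 0.20, and was closest to Birc3 with 0.82.

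**Figure D4:**
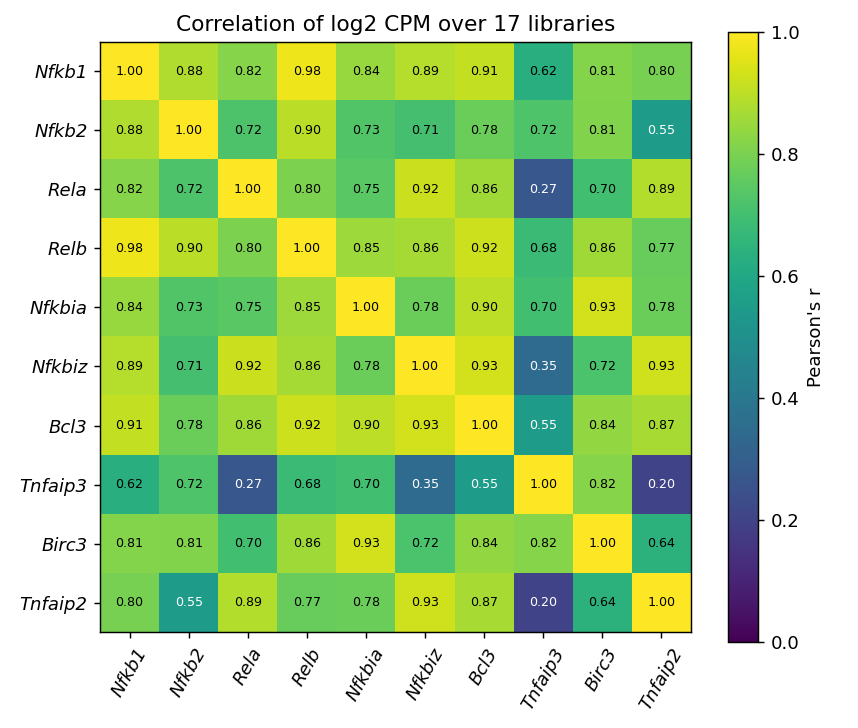
Pearson's r of log2 CPM between the 10 genes over the 17 libraries, from 0 (dark) to 1 (bright). The median of the 45 pairs was 0.812, and the Tnfaip3 row holds the lowest value, 0.203 with Tnfaip2.

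Outside the 10 genes, 9774 genes with a mean of at least 10 CPM were searched for the most similar patterns over the 17 libraries. Nfkbia was most like the chemokine genes Ccl2 and Ccl7 (r = 0.985 for both). Bcl3 was most like Nek6 (0.986) and Cd14 (0.983), the lipopolysaccharide co-receptor, and Nfkb1 most like the iron transporter gene Slc11a2 (0.98) and the receptor gene Il10rb (0.977), which was also the first for Relb (0.963, then Psmd10 at 0.958). Nfkbiz was most like Mt2 (0.96) and Sod2 (0.958), and Tnfaip2 most like Mt1 (0.972) and P2rx4 (0.963). Rela was most like Ninj1 (0.932) and Il1rap (0.921), Birc3 most like Pnrc1 (0.96) and Glrx (0.959), Tnfaip3 most like Nbr1 (0.943) and Sema6a (0.942), and Nfkb2 most like Ttc39c (0.909) and Med24 (0.894). The loosest best match was thus that of Nfkb2.

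Another 88 genes of the pathway were read from the same fit, 78 of which were tested. In conditioned medium 28 were higher than in control and 2 lower, where 7.05% of all genes were called higher and 7.14% lower. The median log2 fold change was 0.25 against 0 over all genes. The calls lay mostly in cytokine, chemokine, protease and other target genes, of which 16 of 24 were higher and 1 lower. Among 24 kinases and adaptors 2 were higher and 1 lower, near the shares of all genes, and among 11 receptors 4 were higher. Of 13 brakes 4 were higher, and of the 3 other family members tested (Rel among them) none was called.

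With TGF-beta 34 of the 78 were lower and 7 higher, where 20.5% of all genes were called lower and 19.7% higher. The median was -0.255 against -0.02 over all genes, and 15 of 24 targets and 6 of 11 receptors were lower. Leaving out the PSC4 replicate 1 libraries gave 37 lower and 7 higher, where 25.3% of all genes were called lower and 24.1% higher. With neratinib against conditioned medium alone 10 were higher and 12 lower, where 10.8% of all genes were called higher and 9.63% lower. The median was -0.027 against 0.001. Leaving out the PSC4 replicate 1 libraries gave 8 higher and 9 lower, where 7.42% of all genes were called higher and 6.73% lower. Neratinib medium against control gave 40 higher and 13 lower, where 22.2% of all genes were called higher and 20.9% lower. The median there was 0.263. Leaving out the PSC4 replicate 1 libraries gave 37 higher and 12 lower, where 20.6% of all genes were called higher and 19.7% lower.

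**Figure D5:**
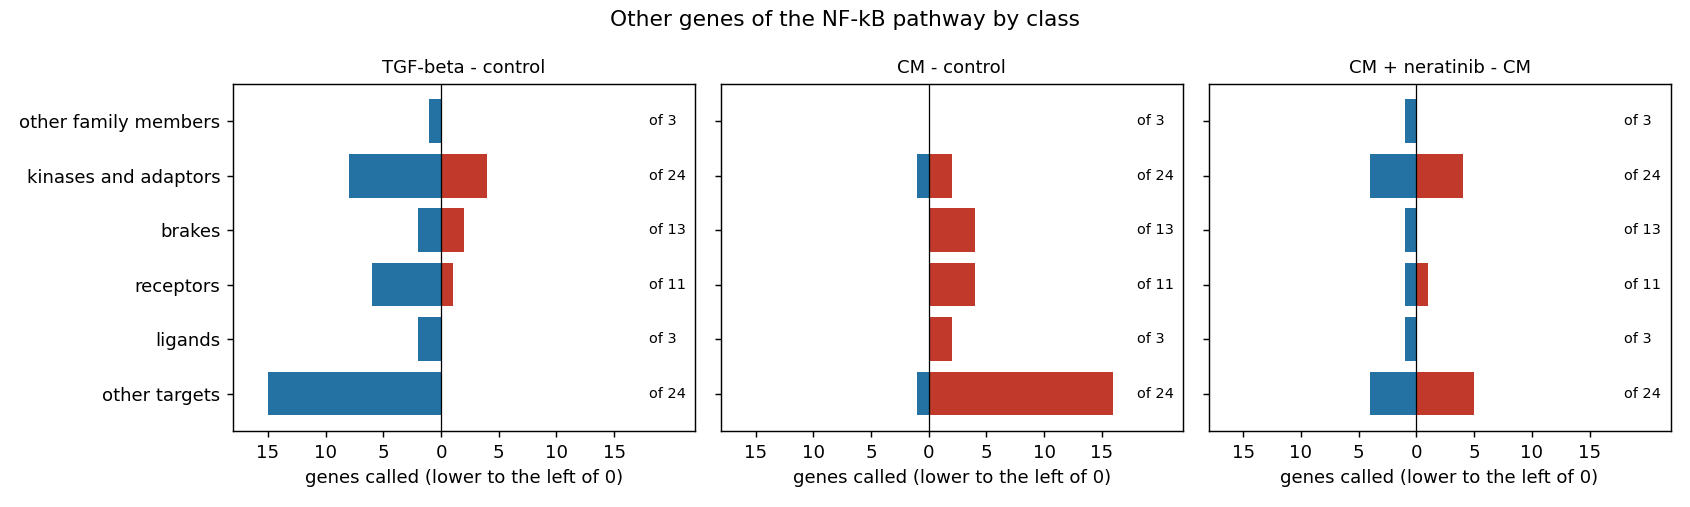
Number of other NF-kB pathway genes called higher (red, to the right) or lower (blue, to the left) at an adjusted p under 0.05, by class, in 3 comparisons; the number tested is at the right. Of 24 targets, 16 were higher in conditioned medium and 15 lower with TGF-beta.

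Among receptors, Tlr2, which senses bacterial lipoproteins, was at 29.0, 32.6, 36.2, 31.3 and 26.6 CPM in control and at 108, 77.1, 124 and 57.7 in conditioned medium, with no overlap (log2 fold change 1.56 ± 0.32, SE; adjusted p = 0.00622, edgeR). Il1r1, the IL-1 receptor, fell with TGF-beta by 1.25 ± 0.26 on the log2 scale (SE; edgeR adjusted p = 0.0014), to 28.8 to 55.7 CPM from 87.9 to 150 in control. It was not called in conditioned medium (0.29 ± 0.25; adjusted p = 0.48). Tnfrsf1a, the main TNF receptor, fell with TGF-beta by 0.55 ± 0.13 (SE; edgeR adjusted p = 0.00405) and was at 0.09 ± 0.13 in conditioned medium (adjusted p = 0.696).

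Among ligands, Il1a had 0 counts in all control and all TGF-beta libraries, 1 to 28 counts in conditioned medium libraries and up to 2.12 CPM with neratinib. Taking 3 counts per library as the floor, at most 0.119 CPM in control, the mean level was at least 4.12-fold higher in conditioned medium and at least 8.62-fold higher with neratinib. Conditioned medium PSC4 replicate 1, with 1 count (0.034 CPM), lay below this floor, so the bound is one for the mean only. It leaves out the spread between libraries, and the part of epithelial transcripts in these counts was not tested. The bound with neratinib was 5.58-fold without neratinib PSC5 replicate 1, and that of conditioned medium 2.87-fold to 5.39-fold on leaving out a library; leaving libraries out here was added after the values were seen.

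Among brakes, Tnip1, a binding partner of the Tnfaip3 product, was at 51.1, 53.9, 51.2, 62.7 and 54.2 CPM in control and at 108, 113, 145 and 86.7 in conditioned medium. It rose by 1.03 ± 0.21 on the log2 scale (SE; edgeR adjusted p = 0.00552). With neratinib it was at 51.7, 76.8, 132 and 55.9 CPM, a log2 fold change of -0.54 ± 0.22 against conditioned medium alone (adjusted p = 0.0963; with the block adjusted p = 0.0259, and without neratinib PSC5 replicate 1 -0.86 with adjusted p = 0.00261). Tnip3, at 0.0709 to 0.501 CPM in control and 1.69 to 3.84 in conditioned medium, rose by 3.36 ± 0.65 (SE; edgeR adjusted p = 0.00429), from 2 to 14 counts per control library. Cyld, a deubiquitinase, fell with TGF-beta by 0.52 ± 0.07 (SE; edgeR adjusted p = 5.22e-05) and was not called in conditioned medium (-0.16 ± 0.07; adjusted p = 0.145).

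Nfkbie, the gene of IkB-epsilon, was at 43.4, 27.2, 43.1 and 36.1 CPM in conditioned medium and at 9.15, 13.04, 29.7 and 14.2 with neratinib, lower in each pair of libraries. It fell by 1.25 ± 0.25 on the log2 scale (SE; edgeR adjusted p = 0.00417). The Nfkbie call was lost with T8 media alone (-1.32, adjusted p = 0.0928) and with only these 8 libraries in the fit (-1.26, adjusted p = 0.0561). With TGF-beta Nfkbie fell by 0.65 ± 0.24 (SE; edgeR adjusted p = 0.0442; with the block adjusted p = 0.0557), a call lost in 10 of 20 alternatives, 7 of which left out control PSC4 replicate 1, 2 or 3, control PSC5 replicate 1, or TGF-beta PSC4 replicate 2 or 3 or PSC5 replicate 1 (adjusted p = 0.0586 to 0.145).

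Map3k14, the kinase of the second branch, was at 54.4, 40.3, 49.3 and 56.8 CPM in conditioned medium and at 18.5, 31.4, 42.2 and 32.1 with neratinib. It fell by 0.72 ± 0.16 on the log2 scale (SE; edgeR adjusted p = 0.00675), a call lost with T8 media alone (-0.85, adjusted p = 0.105) and with only these 8 libraries (-0.72, adjusted p = 0.0778). With TGF-beta it fell by 0.99 ± 0.15 (adjusted p = 0.000153), and in conditioned medium it was at -0.23 ± 0.15 against control (adjusted p = 0.343). Rel, the gene of the remaining subunit c-Rel, was not called in any of these 3 comparisons (adjusted p = 0.199, 0.334 and 0.372 for TGF-beta, conditioned medium and neratinib).

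Icam1, an adhesion molecule and a standard NF-kB target, differed between libraries of one group. In control it was at 51.2 and 58.6 CPM in PSC4 replicates 2 and 3 and at 11.5, 12.7 and 13.7 in PSC4 replicate 1 and PSC5, and in conditioned medium at 60.3 CPM in PSC4 replicate 2 and 16.1 to 20.2 in the others. It was not called in conditioned medium (0.17 ± 0.64, SE; adjusted p = 0.886, edgeR). It fell with TGF-beta by 2.75 ± 0.74 on the log2 scale (SE; edgeR adjusted p = 0.00804), to 1.67 to 5.94 CPM. With neratinib against conditioned medium it was at -1.29 ± 0.70 (adjusted p = 0.203), and it was called with the block (-1.66, adjusted p = 0.00713), without the PSC4 replicate 1 libraries (-1.23, adjusted p = 0.0368) and without neratinib PSC4 replicate 2 (-2.27, adjusted p = 0.0483).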

How the data were processed

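RNA of 17 libraries was sequenced, and the authors deposited 1 file per library of expected counts by Ensembl gene ID, estimated with Salmon 1.4.0 on GRCm38 (mm10), per the submitters' processing notes; the annotation release, filters and use of strand are not given in the sources used here. Of the values above 0, 74.8% were not whole, and all were rounded to whole numbers. Of 35896 gene IDs, 35437 matched a symbol. Exon lengths came from the GENCODE annotation of GRCm38. Floors of counts cover counting error only, and 95% intervals of fold changes come from the fit and hold the spread between libraries.

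All 17 libraries were fitted in 1 model of group and cell line with edgeR 4.0.16 (quasi-likelihood F test, TMM factors, filterByExpr by group, minimum count 10 and minimum total 15) under R 4.3.3. Genes with a Benjamini-Hochberg adjusted p under 0.05 over 13923 genes are called, and the SE is the log2 fold change over the root of F. CPM uses totals scaled by TMM factors. The biological coefficient of variation was 19.8%. The script was tested on simulated data.

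Libraries of one line and number share a passage, per the labels. Their deviations from the group means correlated above 0.1 in 22 of 22 pairs (median 0.299, from 0.12 to 0.635). For the same line with another number it was 14 of 32 pairs (median -0.076, from -0.536 to 0.613). The ranges overlap, and the numbers were taken to pair the libraries. A fit with line by number as a block is given where it changes a call. Alternatives were other scalings (DESeq2 size factors, upper quartile, totals alone), other filters, DESeq2 1.42.0, other covariates, single medium codes, and each library left out.

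The 10 genes, the pathway list, the marker lists and the tests were chosen with earlier results of these data known, and are no independent evidence. All 10 genes are named; of the pathway list, 9 genes are named whatever their values (Rel, Nfkbie, Il1r1, Tnfrsf1a, Tlr2, Map3k14, Cyld, Tnip1 and Icam1), plus the ligand, receptor, brake or family member with the largest called change in conditioned medium or with neratinib, and for each of the 10 genes the 2 most similar genes.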

Additional observations from a re-analysis of the deposited data

Results flagged for a closer look

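Of 40 sets of libraries checked (10 genes in 4 groups), 1 had a library far from the others by Dixon's test, where chance gives about 1 in 20. Birc3 in control PSC4 replicate 1 was at 24.53 CPM, and the nearest other control library was at 27.28; the gap was 0.773 of the group's range, against a critical value of 0.71. This is one of the 3 libraries that stood apart from their line.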

How the results depend on the processing

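Of 1899 values of log2 fold change recomputed under the alternatives, 1797 kept their direction and their side of the threshold. The number of the 10 genes called was 6 to 9 in conditioned medium against control, 6 to 8 with neratinib against control, 10 in conditioned medium against TGF-beta and 8 to 10 with neratinib against TGF-beta. With TGF-beta against control it was 4 to 7, with 7 under library totals alone. With neratinib against conditioned medium it was 1, but 2 with library totals alone or the replicate block, 0 with only the 2 groups fitted, with no cell line term or with T8 media alone, and 0 to 3 on leaving out a library (3 without neratinib PSC5 replicate 1). T6 against T8 gave 0, and 1 with no replicate block. The block changed no other call than those given for Relb, Tnfaip2, Tnfaip3 and Birc3 among the 10 genes. The cause was not tested in any of these.

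Values that changed sign were all uncalled. Rela with neratinib against conditioned medium was -0.006 with upper-quartile factors, -0.045 with totals alone, -0.075 without PSC4 replicate 1 libraries, -0.047 with T6 alone and -0.049 to 0.077 on leaving out a library. On leaving out a library in that comparison, Nfkb1 was -0.139 to 0.045, Nfkbia -0.233 to 0.01, Nfkbiz -0.024 to 0.289 and Il1r1 -0.256 to 0.17; Il1r1 was also 0.093 without PSC4 replicate 1 libraries and 0.004 with T6 alone. Birc3 with neratinib against control was -0.034 with T6 alone and -0.03 to 0.329 on leaving out a library. Icam1 in conditioned medium was -0.058 without the line term, -0.494 with T8 alone and -0.12 to 0.495 on leaving out a library.

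Of all genes, 1976 were called in conditioned medium against control (801 without conditioned medium PSC5 replicate 1, 3240 with the block). With neratinib against conditioned medium it was 2850 (187 with T8 alone, 4563 with the block, and 1748 to 3685 on leaving out a library). For T6 against T8 it was 0 (126 with no replicate block). For the cell line difference of the TGF-beta effect 0 to 3 were called, and with neratinib against TGF-beta 6123 (4092 with only the 2 groups fitted). With TGF-beta against control 5598 were called (4750 to 7091 under the alternatives), and with neratinib against control 5998 (4463 to 7300). Scaling moved the share of called genes that were higher: it was 49% with TGF-beta, 49.7% in conditioned medium, 51.4% with neratinib against control, 52.9% with neratinib against conditioned medium and 50.4% in conditioned medium against TGF-beta. With totals alone these were 28.7%, 33.5%, 32.2%, 38% and 63.4%, and the median of all genes moved to -0.153 with TGF-beta and -0.111 with neratinib against control. With upper-quartile factors 37.5% and 41.1% were higher in conditioned medium and with neratinib against control. The 9-letter core in place of the consensus matched promoters of 4 genes in place of 5. Groups of 4 or 5 libraries limit what smaller differences could be called. Tnip3 did not pass the filter with only the TGF-beta and control libraries in the fit, so it has no value there.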
